A study of Mus musculus with 6 samples.

Results

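The miRNAs described here are the products of the miR-106b, miR-93 and miR-25 cluster that the panel detected, together with miR-92a. They are the 5 assays named miR-106b, miR-106b*, miR-93, miR-25 and miR-92a, picked by name from 103 miRNAs with a normalised value, out of 707 miRNA names on the panel. RNA came from osteoclasts, the multinucleated cells that resorb bone, magnetically sorted from mouse bone marrow as cells carrying the receptors OSCAR and CTR. In the ACLT group (3 samples) the anterior cruciate ligament had been cut 2 weeks earlier, which destabilises the knee; the Sham group (3 samples) had a Sham operation 2 weeks earlier. No source used here gives strain, age or sex. The series text speaks of RNA of 3 mice per group being pooled, so the samples may be repeat measurements, and p-values then measure only technical spread.

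Each value is the threshold cycle (Ct) of 1 real-time PCR well, on which a lower number is more RNA. The level of a miRNA is minus ΔCt, its Ct subtracted from the U6 Ct measured in that sample on that plate. A level of 0 equals U6, and each unit above it stands for a doubling of RNA if amplification was fully efficient. Per sample, the median Ct of all miRNAs was 27.9 to 28.5 cycles. The panel holds no mRNA assay, so the sorting markers could not be checked, and no miRNA defines the osteoclast. Of the 6 myeloid miRNAs listed for a check, 4 had a Ct and were tested, and miR-223 and miR-142-3p had no Ct in any sample. In such bulk RNA, fewer cells of a type and less RNA per cell cannot be told apart.

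A miRNA guides a repressor complex to mRNAs, mainly by pairing of its seed, bases 2 to 8 counted from the 5′ end. The miR-106b, miR-93 and miR-25 hairpins lie in an intron of Mcm7, a subunit of the replicative helicase, and are processed from its transcript. They are paralogues of the cluster that holds miR-17 and miR-92a and is known for driving proliferation. The seed of miR-106b and miR-93 is that of miR-17, whose family represses the cell cycle inhibitor Cdkn1a. The seed of miR-25 and miR-92a belongs to another family, which represses the pro-apoptotic Bcl2l11. One arm of a hairpin usually accumulates as the guide, and the other, marked with an asterisk in this nomenclature, is mostly degraded.

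The mature sequences are shown because the members fall into seed pairs that cut across the cluster. They are printed 5′ to 3′ from the deposited panel, with the seed in capitals, and each was identical to a RefSeq mature miRNA.
miR-106b: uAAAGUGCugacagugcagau
miR-93: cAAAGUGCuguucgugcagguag
miR-25: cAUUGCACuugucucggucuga
miR-92a: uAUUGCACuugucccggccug
miR-106b*: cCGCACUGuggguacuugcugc
Aligned from their first base, miR-106b and miR-93 carried the same base at 16 of 21 positions, and miR-25 and miR-92a at 18 of 21. By contrast miR-93 and miR-25, which share the cluster and not the seed, matched at 9 of 22. In RefSeq (GRCm38.p6, minus strand) the hairpins lie at chr5:138165321-138165404 (Mir25), chr5:138165523-138165610 (Mir93) and chr5:138165737-138165818 (Mir106b). They span 498 bases within Mcm7 (chr5:138164583-138172111). Mature miR-92a has 2 source loci, Mir92-1 at chr14:115044427-115044506 on the plus strand and Mir92-2 at chrX:52741838-52741928 on the minus strand. The Mir106b hairpin below shows, in capitals, the arms measured as miR-106b (first) and miR-106b* (second).
Mir106b: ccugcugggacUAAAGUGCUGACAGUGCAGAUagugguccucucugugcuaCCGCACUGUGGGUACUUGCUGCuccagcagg

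The relatives on the panel were without a Ct. Of 16 listed relatives from the paralogous clusters and the same seed families, 15 were on the panel and 0 had a Ct in any of the 6 samples. Among them were miR-17, miR-20a and miR-106a, which share the seed of miR-106b, and miR-32, miR-363 and miR-92b, which share that of miR-25. Of the 6 panel assays with the AAAGUGC seed, 2 had a Ct (miR-106b and miR-93). Of the 6 with the AUUGCAC seed, 2 had one (miR-25 and miR-92a). The opposite arms miR-93* and miR-92a* had no Ct either, so miR-106b is the one hairpin of the cluster with both arms measured. A missing Ct is not a measured absence. The same 110 wells had a Ct in each of the 6 samples. Whether the blank wells gave no signal within 40 cycles or were left out before deposit was not tested.

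The samples of a group were also set against each other, and the third was found tied to the second for all 5 miRNAs. In ACLT the Ct of miR-106b was 26.799 in sample 2 and 26.531 in sample 3, a ratio of 0.99. The same ratio, within 0.002 cycles, held for miR-106b*, miR-93, miR-25 and miR-92a. In Sham the ratio was 0.97842 for miR-106b and 0.97846 for miR-25, and for miR-93 it was the reciprocal, 1.02204, as it was within tolerance for miR-92a and miR-106b*. The largest deviation of any of the 5 from the factor was 0.0008 cycles. Such a tie was present in 70.0% of all 110 wells in ACLT and in 74.5% in Sham, and in 71 of the 103 miRNAs in both groups. For these 5 miRNAs the Ct of the third sample therefore adds no independent value, and each SD over 3 samples counts a dependent one. The U6 well of plate 1 did not keep the factor. It read 26.131 in sample 2 and 26.865 in sample 3 of ACLT, and 26.902 and 26.453 in Sham. Levels of sample 3 thus join a tied Ct with an untied U6 Ct. Results are also given with samples 2 and 3 averaged and with only samples 1 and 2.

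**Figure D1:**
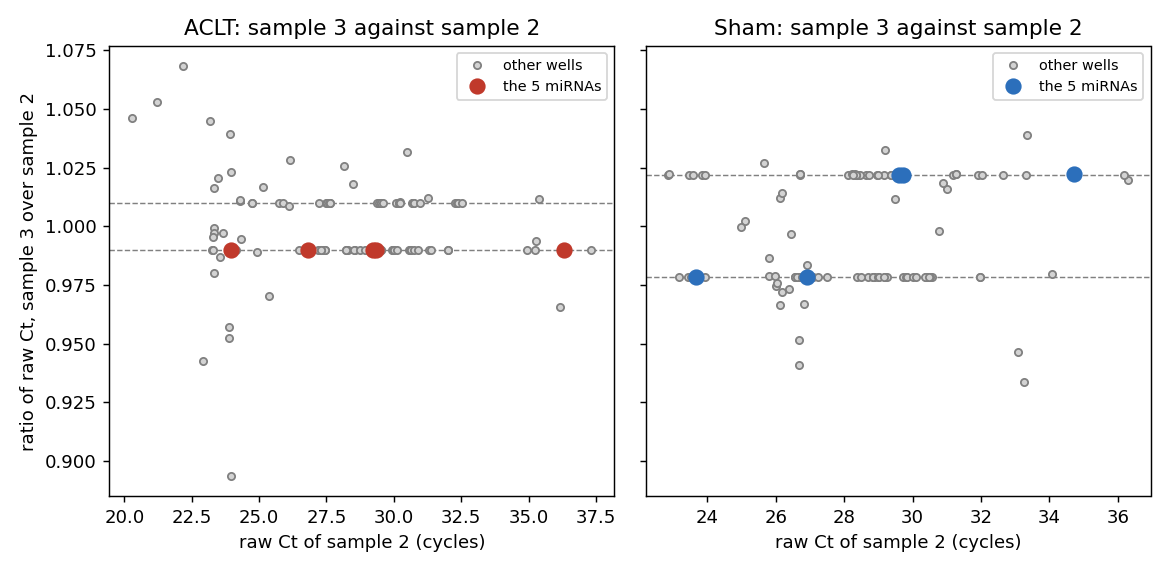
Ratio of the raw Ct of sample 3 to that of sample 2 (vertical axis, no unit) against the raw Ct of sample 2 in cycles, for each of 110 wells, ACLT left and Sham right; dashed lines mark the factor and its reciprocal (0.99 and 1.0101 in ACLT, 0.97843 and 1.02204 in Sham). The 5 miRNAs (large points) sit on a line in both groups, as do most of the other wells.

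Pairs of different wells were also close. The Ct of miR-93 exceeded that of miR-92a by 0.065, 0.11 and 0.108 cycles in the ACLT samples and by 0.092, 0.107 and 0.11 cycles in the Sham samples. The Ct of miR-106b exceeded that of miR-99b, an unrelated miRNA, by 0.026, 0.029 and 0.029 cycles in ACLT and by 0.06, 0.054 and 0.053 cycles in Sham. In both pairs the gap was thus nearly constant while the Ct itself varied by more than a cycle between samples. Of 4407 pairs of miRNAs on the same plate, 24 (0.545%) stayed within 0.2 cycles of each other in all 6 samples, a limit chosen after seeing the data, and the median over all these pairs of the largest gap was 3.62 cycles. The paired sequences are unlike: miR-93 and miR-92a matched at 7 of 21 positions and miR-106b and miR-99b at 5 of 21. miR-106b was close in 5 samples to 2 more miRNAs. The Ct of miR-126-3p exceeded its Ct by 0.003 to 0.06 cycles in these and by 0.99 cycles in ACLT sample 1, and that of miR-142-5p by 0.02 to 0.124 cycles and by 1.13 cycles. Whether the values of miR-93 and miR-92a, or those of miR-106b and miR-99b, are separate measurements was not tested.

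**Figure D2:**
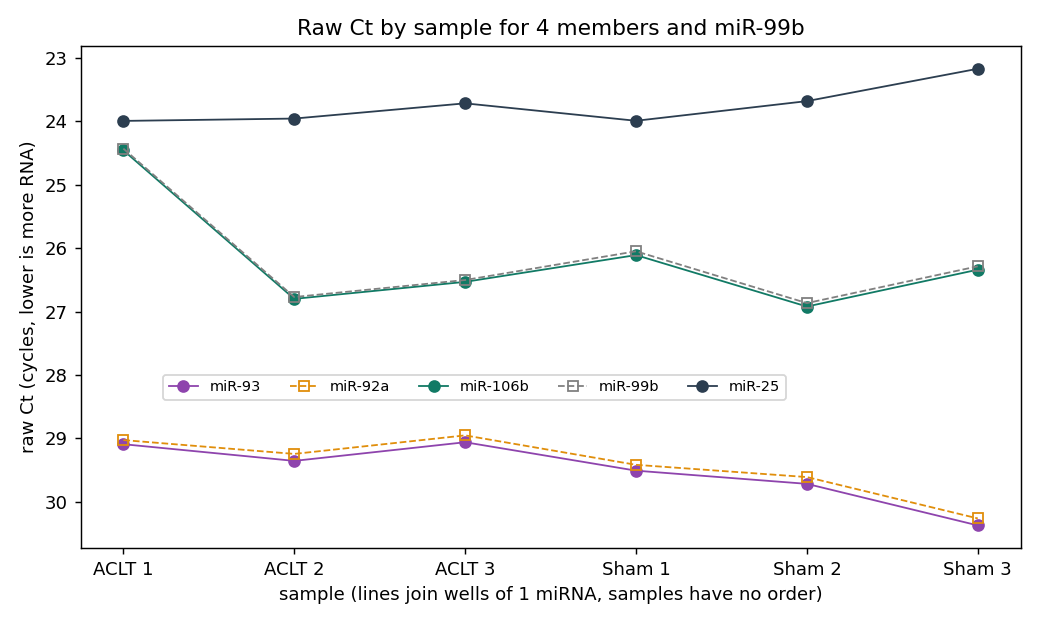
Raw Ct in cycles (axis inverted, so that up is more RNA) of miR-93, miR-92a, miR-106b, miR-99b and miR-25 in the 3 ACLT and the 3 Sham samples. The lines of miR-93 and miR-92a run 0.065 to 0.11 cycles apart and those of miR-106b and miR-99b 0.026 to 0.06 cycles apart, while miR-25 follows neither.

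The members kept the same order of level in 6 of 6 samples, with miR-25 highest, then miR-106b, miR-92a, miR-93 and miR-106b*. Among the 103 miRNAs ranked by mean level, miR-25 was number 8, miR-106b number 32, miR-92a number 63, miR-93 number 70 and miR-106b* number 101. Levels of different assays also carry their primer efficiencies, which no source used here gives, so the order of close neighbours such as miR-92a and miR-93 carries no weight. After ligament transection none of the members differed from Sham beyond the spread between samples when U6 was the normalizer. By limma with Benjamini-Hochberg adjustment over the 100 miRNAs tested, 0 of the 4 members in the fit passed an adjusted p of 0.05, and 0 of 4 had an unadjusted p under 0.05. Of all tested miRNAs 20.0% passed, 13.0% as higher and 7.00% as lower in ACLT. The median log2 change of the 4 was 0.68, beside 0.24 over all 100, and 2 of the 4, miR-93 and miR-92a, rest on nearly the same values.

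**Figure D3:**
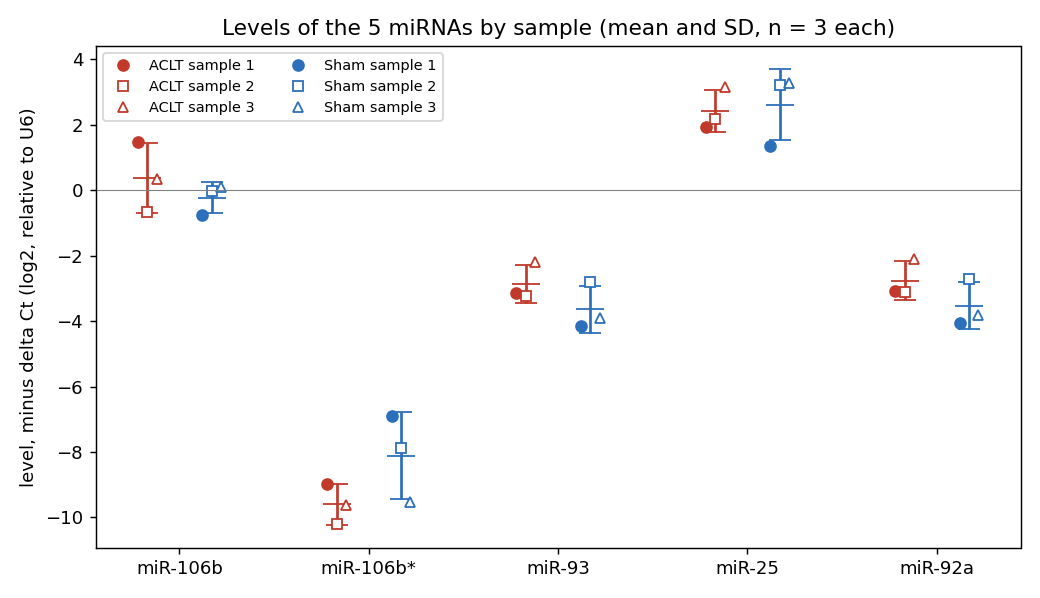
Level relative to U6 (minus ΔCt, log2) of each of the 5 miRNAs, ACLT in red and Sham in blue; symbols are the 3 samples of a group, horizontal ticks the mean and bars the SD. The groups overlap for each miRNA, and the largest distance between samples of a group is that of miR-106b* in Sham, from -6.91 to -9.54.

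miR-106b, the first hairpin of the cluster on its strand, had levels of 1.48, -0.67 and 0.33 in the ACLT samples, against -0.76, -0.02 and 0.11 in the Sham samples. ACLT sample 1 lay above all others, ACLT sample 2 lay below 2 of the 3 Sham samples, and the groups overlapped. The mean level was 0.38 ± 1.07 in the ACLT samples and -0.22 ± 0.47 in the Sham samples (SD, n = 3 each). The log2 change was 0.60 ± 0.64 (SE; limma adjusted p = 0.577), with a 95% interval of -0.65 to 1.86. It shrank to 0.055 without ACLT sample 1 and was 1.13 without ACLT sample 2. With samples 2 and 3 averaged it was 1.01 (limma adjusted p = 0.629), and with only samples 1 and 2 it was 0.80 (limma adjusted p = 0.852).

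miR-93, which has the same seed, had levels of -3.15, -3.22 and -2.19 in ACLT, against -4.16, -2.81 and -3.92 in Sham. ACLT sample 3 was the highest, but Sham sample 2 exceeded the other ACLT samples. The means were -2.86 ± 0.57 in ACLT, against -3.63 ± 0.72 in Sham (SD, n = 3 each), a log2 change of 0.77 ± 0.59 (SE; limma adjusted p = 0.417; 95% interval -0.39 to 1.94). miR-92a, from the paralogous clusters, followed it: -3.09, -3.11 and -2.09 in ACLT, against -4.07, -2.71 and -3.81 in Sham. Its log2 change was 0.77 ± 0.59 (SE; limma adjusted p = 0.417; 95% interval -0.40 to 1.93). With samples 2 and 3 averaged the changes were 0.83 for miR-93 and 0.82 for miR-92a, and with only samples 1 and 2 they were 0.30 and 0.29. None of these passed in limma (adjusted p = 0.629 averaged and 0.852 with samples 1 and 2).

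On the raw scale the groups did not overlap for this pair. The Ct of miR-93 was 29.1, 29.4 and 29.1 cycles in ACLT, against 29.5, 29.7 and 30.4 cycles in Sham. All ACLT wells thus came up earlier than all Sham wells, by 0.697 cycles on average (exact permutation p = 0.1, two-sided, the smallest that 3 against 3 allows). For miR-92a the difference was 0.688 cycles, again with no overlap (exact permutation p = 0.1). For both miRNAs the third well of each group is tied to the second, so these p-values count a dependent well. With only samples 1 and 2 no p under 0.333 would be possible. Of all tested miRNAs 27.0% had all ACLT wells earlier on raw Ct, and 18.0% had all ACLT levels higher relative to U6. The U6 well of plate 1, subtracted from these wells, read 25.9, 26.1 and 26.9 cycles in ACLT and 25.3, 26.9 and 26.5 cycles in Sham. It ranged more widely than miR-93 did in either group, and Sham sample 1 combined the lowest U6 Ct with the lowest level of miR-106b, miR-93, miR-92a and miR-25. A low U6 Ct lowers each level by definition, and raw Ct is not corrected for RNA input. The part of U6 and of RNA input in these differences was not tested.

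miR-25, the most abundant member, had levels of 1.94, 2.17 and 3.15 in ACLT, against 1.35, 3.22 and 3.28 in Sham. Sham sample 1 was lowest and the other 2 Sham samples were highest, so that the ACLT samples lay inside the Sham range. The means were 2.42 ± 0.64 in ACLT, against 2.62 ± 1.10 in Sham (SD, n = 3 each). Its log2 change of -0.20 ± 0.59 (SE; limma adjusted p = 0.826; 95% interval -1.36 to 0.96) had the opposite sign to those of miR-106b and miR-93. The sign did not hold when single samples were left out, with 0.04 without ACLT sample 1, 0.10 without Sham sample 2 and 0.13 without Sham sample 3. With samples 2 and 3 averaged its change was -0.00075 (limma adjusted p = 0.999), and with only samples 1 and 2 it was -0.23 (limma adjusted p = 0.869). On raw Ct miR-25 spanned 0.822 cycles over the 6 samples, less than the 2.46 cycles of miR-106b and the 1.31 cycles of miR-93.

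miR-106b*, the second arm of the miR-106b hairpin, was near the end of the detectable range. Its Ct was 34.6, 36.3 and 35.9 cycles in ACLT, against 32.7, 34.7 and 35.5 cycles in Sham. Neither group had all samples under the Ct limit of 35, so it was outside the fit of 100 miRNAs. Its levels were -8.96, -10.21 and -9.63 in ACLT, against -6.91, -7.89 and -9.54 in Sham, where Sham sample 3 lay within the ACLT range. The log2 difference of -1.49 had an exact permutation p = 0.2 (two-sided), and in a limma fit with no Ct limit an adjusted p of 0.224. With samples 2 and 3 averaged it was -1.63, with only samples 1 and 2 it was -2.19, and after quantile normalization it was -0.68. In the authors' deposited table the ratio of ACLT to Sham was 0.356 for miR-106b*, against 1.52 for miR-106b.

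Differences between members within a sample address whether products of a shared transcript keep their proportion. For assays on the same plate the U6 well cancels out, but the tie of sample 3 to sample 2 does not always. In Sham the Ct of sample 3 was that of sample 2 times the factor for miR-106b and miR-25. For miR-93, miR-92a and miR-106b* it was that of sample 2 divided by the factor. A difference between the former and the latter miRNAs therefore shifts with the tie from Sham sample 2 to sample 3. The permutation tests below count the tied samples as separate. miR-106b exceeded miR-93 by 4.63, 2.55 and 2.53 log2 units in ACLT and by 3.40, 2.80 and 4.03 in Sham, and ACLT sample 1 was above all others. The mean difference was 3.24 ± 1.21 in ACLT samples and 3.41 ± 0.62 in Sham samples (SD, n = 3 each), which differed by -0.17 (exact permutation p = 0.8). miR-106b minus miR-25 averaged -2.04 ± 1.37 in ACLT, against -2.84 ± 0.63 in Sham (SD, n = 3 each), with ACLT sample 1 again apart at -0.46 (exact permutation p = 0.5).

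The difference of miR-93 and miR-25 separated the groups. It was -5.10, -5.40 and -5.34 in ACLT, against -5.51, -6.03 and -7.20 in Sham. The ACLT values were all above the Sham values, of which sample 3 was the lowest, and the SD was 0.16 in ACLT and 0.86 in Sham (n = 3 each). From Sham sample 2 to sample 3 the tie raised the Ct of miR-93 from 29.715 to 30.37. It lowered that of miR-25 from 23.682 to 23.172. In ACLT the tie ran the same way for both miRNAs. The low value of Sham sample 3 and both SDs thus carry the tie. The change in the difference was 0.97 (exact permutation p = 0.1, two-sided; Benjamini-Hochberg adjusted p = 0.25 over the 5 pairs compared). Without Sham sample 3 it was 0.50, and with only samples 1 and 2 it was 0.53. miR-25 and miR-92a, the pair with the shared AUUGCAC seed, mirrored this with 5.03, 5.29 and 5.23 in ACLT, against 5.42, 5.93 and 7.09 in Sham. Their change was -0.96 (exact permutation p = 0.1; adjusted p = 0.25), -0.49 without Sham sample 3 and -0.52 with only samples 1 and 2. Since the Ct of miR-93 and miR-92a ran in parallel, these are not separate results. Groups without overlap were common for such differences, 49.5% of the 4386 pairs of tested miRNAs on the same plate.

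The arms of miR-106b were far apart in every sample. miR-106b exceeded miR-106b* by 10.44, 9.54 and 9.96 log2 units in ACLT, against 6.14, 7.87 and 9.65 in Sham. The Sham values spread widely, and Sham sample 3 lay above ACLT sample 2, so that the groups overlapped. The difference averaged 9.98 ± 0.45 in ACLT, against 7.89 ± 1.75 in Sham (SD, n = 3 each), a change of 2.10 (exact permutation p = 0.2, two-sided; adjusted p = 0.333 over the 5 pairs). The assays stand on different plates, each with its own U6 well. On raw Ct, without these wells, the change was 1.86 and the groups did not overlap (exact permutation p = 0.1), which was so for 38.4% of the 846 pairs of miRNAs on different plates. After quantile normalization the change was 0.60. Without Sham sample 1 it was 1.22, without Sham sample 3 it was 2.98, with samples 2 and 3 averaged 2.65 and with only samples 1 and 2 it was 2.99.

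**Figure D4:**
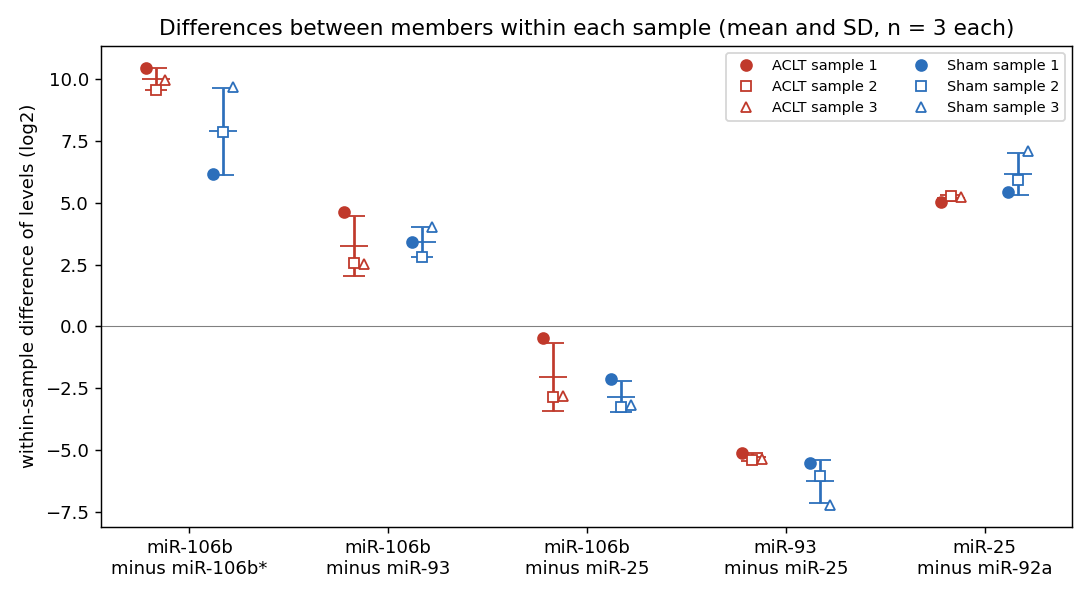
Within-sample difference of levels (log2) for 5 pairs of members, ACLT in red to the left of Sham in blue; symbols are samples, ticks the mean and bars the SD of 3. The groups overlap for the 3 pairs with miR-106b and do not for miR-93 minus miR-25 and miR-25 minus miR-92a. In the latter pairs Sham sample 3, tied to sample 2 in opposite directions for the paired miRNAs, lies farthest out.

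Likeness of pattern was measured as the root mean square difference of levels over the 6 samples after each miRNA was set to a mean of 0. It carries the tie of sample 3 to sample 2. In Sham sample 3 was tied by the factor for miR-106b and miR-25 and by its reciprocal for miR-93, miR-92a and miR-106b*. The measure also shares U6 and sample input between all miRNAs and is given as a description. Over the 4950 pairs of tested miRNAs its median was 0.857 log2 units. miR-93 and miR-92a were at 0.016, the third closest of all pairs. Within the cluster the likeness was close to that median, with 0.788 for miR-106b and miR-93, 0.701 for miR-93 and miR-25 and 0.956 for miR-106b and miR-25. The pair of miR-25 and miR-92a with the same seed was at 0.693, and the arms of miR-106b at 1.48.

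The miRNAs nearest to each member came mostly from outside the cluster. For miR-106b they were miR-99b (0.014), miR-98 (0.118) and miR-126-3p (0.364). For miR-93 they were miR-92a, miR-455 (0.173) and let-7e (0.211). miR-92a had the same neighbours, with miR-93, miR-455 (0.162) and let-7e (0.208). For miR-25 they were let-7i (0.20), miR-26b (0.26) and miR-23a (0.27). For miR-106b*, near the end of detection, they were miR-99b* (0.563), miR-382 (0.738) and miR-184 (0.773). No product of the Mcm7 cluster was among the 3 nearest of another product of it.

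The direction for miR-106b, miR-93 and miR-92a depended on the normalizer, while miR-25 and miR-106b* had changes below 0 with each of the 7. With quantile normalization miR-93 rose by 1.15 ± 0.38 and miR-92a by 1.12 ± 0.38 (SE; limma adjusted p = 0.0234 and 0.0271). There miR-25 fell by 1.56 ± 0.44 (SE; limma adjusted p = 0.0135) and miR-106b stood at -0.08. This fall of miR-25 is larger than the 0.822 cycles its raw Ct spanned over the 6 samples. On raw Ct its log2 change was -0.27 (limma adjusted p = 0.695). Under that scaling 10.0% of tested miRNAs passed as higher and 14.0% as lower. With reference 3, an unnamed assay whose mean Ct on plate 1 was 28.3 cycles in ACLT and 31.0 cycles in Sham, all 4 were lower in ACLT, by -1.96 for miR-93, -1.97 for miR-92a, -2.13 for miR-106b and -2.93 for miR-25 (limma adjusted p from 0.000431 to 0.0019), as were 87.0% of all tested miRNAs. The median over all 100 was then -2.50, so relative to it miR-93 and miR-92a stood 0.54 and 0.53 above and miR-25 stood -0.43 from it, just as with U6. miR-93 and miR-92a stood above miR-106b, and miR-106b above miR-25, with each of the 7 normalizers; for all but quantile normalization this follows from subtracting 1 value per sample and plate.

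**Figure D5:**
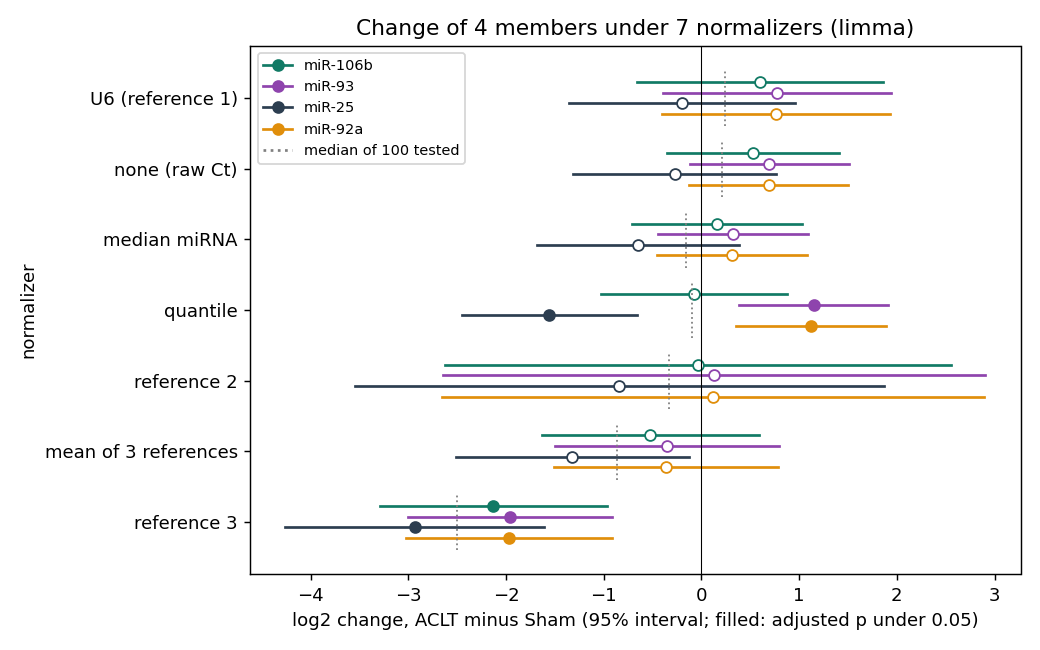
Log2 change, ACLT minus Sham, of 4 members with its 95% interval under 7 normalizers (limma); filled points passed an adjusted p of 0.05 and the dotted line is the median of the 100 miRNAs tested. The points shift left as a block from U6 to reference 3, and with quantile normalization miR-25 (-1.56) lies apart from miR-93 (1.15) and miR-92a (1.12).

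Among the lists of cell type markers only the mesenchymal list had calls. Of 5 mesenchymal miRNAs 3 were called higher in ACLT, beside 13.0% of all tested. The lists were chosen with earlier results of these data known, which limits this comparison. Wells of some listed miRNAs are among the pairs that stayed within 0.2 cycles of each other in all 6 samples. Summed on the linear scale (2^-ΔCt, not log2), the mesenchymal miRNAs stood at 37.5 to 51.5 in ACLT and at 4.91 to 7.16 in Sham. The most abundant miRNA weighs most in such a sum. The erythroid, lymphoid, myeloid, endothelial and muscle lists had 0 calls among 3, 3, 4, 1 and 1 tested miRNAs, in the same limma fit. The myeloid sum, on the same linear scale, was 6.32 to 20.1 in ACLT and 3.84 to 13.4 in Sham. The part of these cell types in the values of the members was not tested.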

How the data were processed

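Mature miRNAs were measured by real-time PCR. Per the labels' protocols, Trizol RNA was turned into cDNA with the QuantiMir kit, and a ViiA7 instrument ran 40 cycles with SYBR Green. No source used here gives the threshold or baseline settings. The deposited scores are Ct values in cycles, ΔCt values on a log2 scale and, per the file headers, linear ratios of ACLT to Sham normalized to U6. ΔCt equalled the raw Ct minus a single reference well of the sample and plate. Another 2 lines of that table were not used here. There is no read depth in qPCR; the few samples set the precision.

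Samples were grouped by their titles. The 100 miRNAs whose Ct stayed under 35 throughout at least 1 group entered a fit of minus ΔCt by limma 3.58.1 (R 4.3.3; two-sided, moderated with a trend), with Benjamini-Hochberg adjustment over all 100 and a threshold of 0.05. limma pooled the spread over all miRNAs (400 degrees of freedom), which treats wells of a sample, tied ones included, as independent. The fit was tested on simulated data with independent noise. These lack the tie of samples 2 and 3, so the test does not cover that dependence. Within-sample differences between members were tested by exact permutation (two-sided), adjusted over 5 pairs. Alternatives were other normalizers, Ct limits and variance models, a block for the replicate number, leaving out each sample, samples 2 and 3 averaged, and only samples 1 and 2. Named miRNAs are the 5 members, 16 relatives, the 3 nearest to each member and the reference assays; miR-223, miR-142-3p and miR-142-5p, from a list of myeloid markers, were named after their values were seen. The members and lists were chosen with earlier results of these data known. Mature and hairpin sequences are from the deposited panel and RefSeq (GRCm38.p6). Other computations used Python 3.11.15 with scipy 1.17.1, pandas 2.3.3, numpy 2.4.6 and, for figures, matplotlib 3.10.9.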

Additional observations from a re-analysis of the deposited data

How the results depend on the processing

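Normalization to U6 gave 20 miRNAs past the threshold. Other normalizers gave 36 (median miRNA), 0 (reference 2; limma then had 2 with an unadjusted p under 0.05), 88 (reference 3) and 40 (all 3 references averaged). Merging samples 2 and 3 of a group left 11, dropping sample 3 left 3, and omitting a single sample gave between 13 and 30. The Ct limits and variance models tried kept it at 19 to 21. The change of miR-106b, 0.60, was -0.039 against reference 2, -2.13 against reference 3, -0.52 against the averaged references and -0.077 after quantile normalization. That of miR-93, 0.77, was -1.96 against reference 3, -0.35 against the averaged references and 1.15 after quantile normalization. That of miR-92a, 0.77, became -1.97, -0.36 and 1.12 under the same 3 settings. That of miR-25, -0.20, was -2.93 with reference 3 and -1.56 after quantile normalization, both past the threshold. That of miR-106b*, -1.49, was -4.21 with reference 3, -2.44 against the averaged references and -0.68 after quantile normalization. The causes were not tested. Leaving out each sample gave 0.055 to 1.13 for miR-106b, -2.21 to -0.89 for miR-106b*, 0.44 to 1.18 for miR-93, -0.83 to 0.13 for miR-25 and 0.43 to 1.18 for miR-92a.

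The change in the difference of miR-106b and miR-93, -0.17, was 0.18 with samples 2 and 3 averaged and 0.50 with only samples 1 and 2. It ran from -0.87 to 0.19 when leaving out each sample, against 1.22 to 2.98 for the arms of miR-106b, 0.013 to 1.20 for miR-106b and miR-25, 0.50 to 1.34 for miR-93 and miR-25, and -1.32 to -0.49 for miR-25 and miR-92a. Quantile normalization changed these differences to -1.22 for miR-106b and miR-93 (-0.17 with U6), 0.60 for the arms of miR-106b (2.10), 1.48 for miR-106b and miR-25 (0.80), 2.70 for miR-93 and miR-25 (0.97), and -2.68 for miR-25 and miR-92a (-0.96). With samples 2 and 3 averaged or only samples 1 and 2, no p under 0.333 was possible for these differences. Samples of equal replicate number deviated together with a correlation of 0.24, 0.056 and 0.066, so the numbers were not taken to pair the samples. With the replicate number as a block 14 miRNAs passed in limma in place of 20, the adjusted p of the 4 members in the fit ran from 0.551 for miR-93 and miR-92a to 0.804 for miR-25, and sign flips within pairs gave 0.25 for 4 of the 5 differences and 0.75 for miR-106b minus miR-93.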
